A study of Mus musculus with 12 samples.

Results

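Muscle-like cells shorten when myosin filaments pull on actin filaments, and the genes described here encode parts of that machinery or its close relatives. The set holds 9 of the 31053 genes in the count files: Tagln, Acta2, Myl9, Tpm1, Tpm2, Cnn2, Myh11, Tagln2 and Actn1. They were chosen by name as smooth muscle and contractile genes, and Tagln was picked because its level shifted between the groups in preadipocytes. The group differences in Pdgfra cells are therefore given as a description. Genes called there are counted, but no p-values are given and nothing is read from the counts. Mural cells and, for all but Tagln in Pdgfra cells, the comparison between depots were tested. In adipose tissue Tagln, Acta2 and Myh11 are best known from mural cells, that is the pericytes and vascular smooth muscle cells that wrap blood vessels. Stromal cells that carry Pdgfra, among which are the adipocyte progenitors, can also switch on Tagln and Acta2, as myofibroblasts do, and Cnn2, Tagln2, Actn1 and the tropomyosins are made by many cell types. Transcription of many contractile genes is driven by serum response factor (SRF), which binds a short DNA motif, the CArG box, and by its myocardin-related partners, which sense how much actin is polymerised.

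The data are 12 single-cell RNA libraries of the stromal vascular fraction, the cells left when digested fat is freed of its floating adipocytes. Fat came from the epididymal (eWAT) and inguinal (iWAT) depots of male mice aged 12 weeks. WT-Veh mice were C57BL/6J given the methylcellulose vehicle, ob/ob-Veh mice were Lepob/Lepob given the same vehicle, and ob/ob-Rosi mice were Lepob/Lepob given the PPARγ agonist rosiglitazone at 30 mg/kg, and all were gavaged morning and evening for 3 days. Each group has 2 biological replicates in each depot. Lepob/Lepob mice make no working leptin in any cell, so obesity and the lack of leptin cannot be told apart, and the ob/ob-Veh libraries serve in both the ob/ob comparison and the Rosi comparison. Lean mice given rosiglitazone were not analysed here.

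The files held 20132553 to 92475986 unique molecular identifiers (UMIs, each a counted RNA molecule) per library. Droplets with 700 to 22000 UMIs, 200 to 6000 genes and under 25% mitochondrial UMIs were kept, which left 57613 cells in eWAT and 68482 in iWAT, with a median of 1132 to 4961 UMIs per cell by library. No pair of libraries shared more than 99 cell barcodes. The library WT-Veh iWAT replicate 1 stood apart, with the lowest median depth and 396 Pdgfra cells where the other iWAT libraries had 2620 to 6702. Some of the values that rest on it, not all, are also given without it.

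Cells were clustered without the 9 genes, without 45 further contractile genes and without 12 target genes of TGF-beta, SRF or YAP, then named from fixed markers. Pdgfra cells, set by Pdgfra, Dcn, Col1a1 and 7 further stromal markers, numbered 17440 in eWAT and 19505 in iWAT. Mural cells, set by 14 markers such as Rgs5, Notch3, Kcnj8 and Abcc9, numbered 486 in eWAT and 570 in iWAT. The eWAT libraries held 45 and 94 mural cells in WT-Veh, 37 and 97 in ob/ob-Veh, and 29 and 184 in ob/ob-Rosi. In iWAT they held 21 and 146 in WT-Veh, 1 and 13 in ob/ob-Veh, and 100 and 289 in ob/ob-Rosi, so the ob/ob-Veh iWAT libraries were too small for a mural comparison. The label needs a limit: 83.3% of the eWAT mural cells and every iWAT mural cell also showed more than 1 of 10 endothelial markers, so most of these droplets held RNA of a vessel wall cell and an endothelial cell together. The eWAT mural sub-clusters led by Gja4 (258 cells) and Rgs5 (114 cells) showed a median of 9 and 10 of those markers. With finer clustering (resolution 2) a mere 113 eWAT cells kept the mural name. A further iWAT sub-cluster of 76 cells that carried mural markers but was led by the macrophage genes Lyve1, Fcna and Folr2 was left unnamed. Levels are given as CPM, a gene's UMIs per 1000000 UMIs summed over the cells of a class in a library, and because the reads count 3′ ends, levels are compared between cells and groups, not between genes.

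Tagln lies on the reverse strand at chr9:45929619-45936058 and encodes transgelin (SM22α), an actin-binding protein that is an early marker of the smooth muscle state. Acta2, at chr19:34241090-34255590 on the reverse strand, encodes α smooth muscle actin. Myosin is represented by Myh11, the smooth muscle heavy chain, at chr16:14194535-14291372 on the reverse strand, and by Myl9, the regulatory light chain, at chr2:156775420-156781658 on the forward strand. Tpm1 (chr9:67022590-67049406, reverse) and Tpm2 (chr4:43514711-43523765, reverse) encode tropomyosins, which lie along the actin filament. Cnn2 (chr10:79988584-79996062, forward) encodes a calponin, Tagln2 (chr1:172500047-172507380, forward) a transgelin found in many non-muscle cells, and Actn1 (chr12:80167547-80260371, reverse) α-actinin, which cross-links actin filaments. All are protein-coding genes and the spans are those of GENCODE vM21 on GRCm38.

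The promoters of 7 members were in the RefSeq table for GRCm38.p6, and Tagln and Myh11 were not. The CArG box, a motif of 10 bases, was searched for on both strands in the 250 bases before the start, and no matches overlapped. The starts are those of the RefSeq table and lie inside the GENCODE gene spans given above. Part of each member's window therefore falls within its span, as do the 2 Acta2 stretches given below. The exact motif was found in 1.47% of 32851 promoters of that length, and 18.6% held it exactly or with 1 other base. Myl9 and Cnn2 held exact matches, 161 to 152 and 56 to 47 bases before the start. Acta2 held 2 stretches with 1 other base, at 84 to 75 and 34 to 25 bases before the start, Myl9 held a further such stretch at 99 to 90, and Tpm1 held 2, at 221 to 212 and 80 to 71. Tpm2, Tagln2 and Actn1 held no such stretch in this window. The sequences of Acta2 (chr19:34255374-34255623, reverse strand), Myl9 (chr2:156775214-156775463, forward) and Cnn2 (chr10:79988350-79988599, forward) are shown because they hold the matches nearest to the start or the exact ones, and every match, exact or with 1 other base, is in capitals. A match is a description of letters, not a shown binding site.
Acta2: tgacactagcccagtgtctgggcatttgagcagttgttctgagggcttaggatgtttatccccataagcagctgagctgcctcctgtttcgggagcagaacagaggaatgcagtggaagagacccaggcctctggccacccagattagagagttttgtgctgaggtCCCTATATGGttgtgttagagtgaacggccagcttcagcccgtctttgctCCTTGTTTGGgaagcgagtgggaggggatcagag
Myl9: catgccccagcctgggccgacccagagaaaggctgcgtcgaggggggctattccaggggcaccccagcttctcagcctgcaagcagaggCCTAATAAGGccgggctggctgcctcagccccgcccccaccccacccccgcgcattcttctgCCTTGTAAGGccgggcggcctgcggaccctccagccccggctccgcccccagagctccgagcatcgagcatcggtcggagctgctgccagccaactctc
Cnn2: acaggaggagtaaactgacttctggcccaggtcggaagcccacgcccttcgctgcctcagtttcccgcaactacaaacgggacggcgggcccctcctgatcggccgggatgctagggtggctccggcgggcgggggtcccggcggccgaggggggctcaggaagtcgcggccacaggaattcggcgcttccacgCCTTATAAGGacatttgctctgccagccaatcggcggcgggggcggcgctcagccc

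In eWAT Pdgfra cells Tagln was at 172 and 86.5 CPM in WT-Veh, at 4.61 and 4.33 CPM in ob/ob-Veh, and at 87.3 and 180.4 CPM in ob/ob-Rosi. Both ob/ob-Veh libraries were far below every other library, and WT-Veh and ob/ob-Rosi overlapped. This is the contrast for which the gene was chosen, and the fitted log2 changes were −4.93 ± 0.50 (SE, n = 2 against 2) in ob/ob-Veh against WT-Veh and 4.95 ± 0.50 in ob/ob-Rosi against ob/ob-Veh. Myeloid cells of the same libraries, which should lack Tagln, read 3.17 to 6.08 CPM, so the ob/ob-Veh level lay within that background.

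Acta2 followed the same order. Its level was 52.1 and 26.7 CPM in WT-Veh, 5.15 and 6.96 CPM in ob/ob-Veh, and 45.3 and 96.5 CPM in ob/ob-Rosi, against 0.932 to 3.45 CPM in myeloid cells. Neither WT-Veh nor ob/ob-Rosi overlapped the ob/ob-Veh values, and the log2 changes were −2.80 ± 0.45 and 3.62 ± 0.46.

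Of the tropomyosins, Tpm2 was at 138 and 84.0 CPM in WT-Veh, 18.8 CPM in each ob/ob-Veh library, and 106 and 124 CPM in ob/ob-Rosi. Tpm1 ranged less, from 77.4 and 92.3 CPM in ob/ob-Veh to 130.0 and 173 CPM in WT-Veh and 129 and 164 CPM in ob/ob-Rosi. Actn1 was at 46.5 and 31.6 CPM in WT-Veh, 10.4 and 11.5 CPM in ob/ob-Veh, and 41.7 and 38.5 CPM in ob/ob-Rosi. For each of these 3 genes both ob/ob-Veh libraries were the lowest of the 6, and the share of all genes with that order was not counted in eWAT. Myeloid cells of eWAT had the same order, with Actn1 at 48.4 and 52.2, 12.2 and 12.9, and 50.3 and 42.9 CPM, Tpm1 at 60.1 and 62.6, 20.5 and 35.9, and 60.9 and 59.3 CPM, and Tpm2 at 15.2 and 6.59, 2.05 and 2.88, and 12.4 and 8.98 CPM. For Actn1 every group was thus as high in myeloid as in Pdgfra cells, so the order was not shown to belong to Pdgfra cells.

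The other members did not share that pattern. Myl9 was lowest in ob/ob-Rosi replicate 1 and ob/ob-Veh alike, at 22.8 and 30.7 CPM in ob/ob-Veh and 26.9 and 103 CPM in ob/ob-Rosi, against 53.4 and 78.3 CPM in WT-Veh. Cnn2 stayed between 34.2 and 58.6 CPM and Tagln2 between 181 and 384 CPM, with overlapping groups except that Tagln2 was higher in both ob/ob-Rosi libraries, at 259 and 384 CPM, than in the other 4 libraries. Myh11, the gene most restricted to mature smooth muscle, went the opposite way at a low level, with 2.12 and 9.44 CPM in WT-Veh, 11.3 and 26.3 CPM in ob/ob-Veh, and 5.22 and 3.33 CPM in ob/ob-Rosi.

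By edgeR's rule (adjusted p at most 0.05 and at least 1.1-fold), 4 of 9 members were called lower in ob/ob-Veh (Tagln, Acta2, Tpm2, Actn1), where 7.2% of all 13165 genes tested were called in either direction, 4.27% lower and 2.93% higher. In ob/ob-Rosi against ob/ob-Veh the same 4 genes were called higher and Myh11 lower, where 8.28% of all genes were called, 4.68% higher and 3.6% lower. Since Tagln was picked for its shift in these cells, and the members were chosen with earlier results of these data known, nothing is read from those counts.

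**Figure D1:**
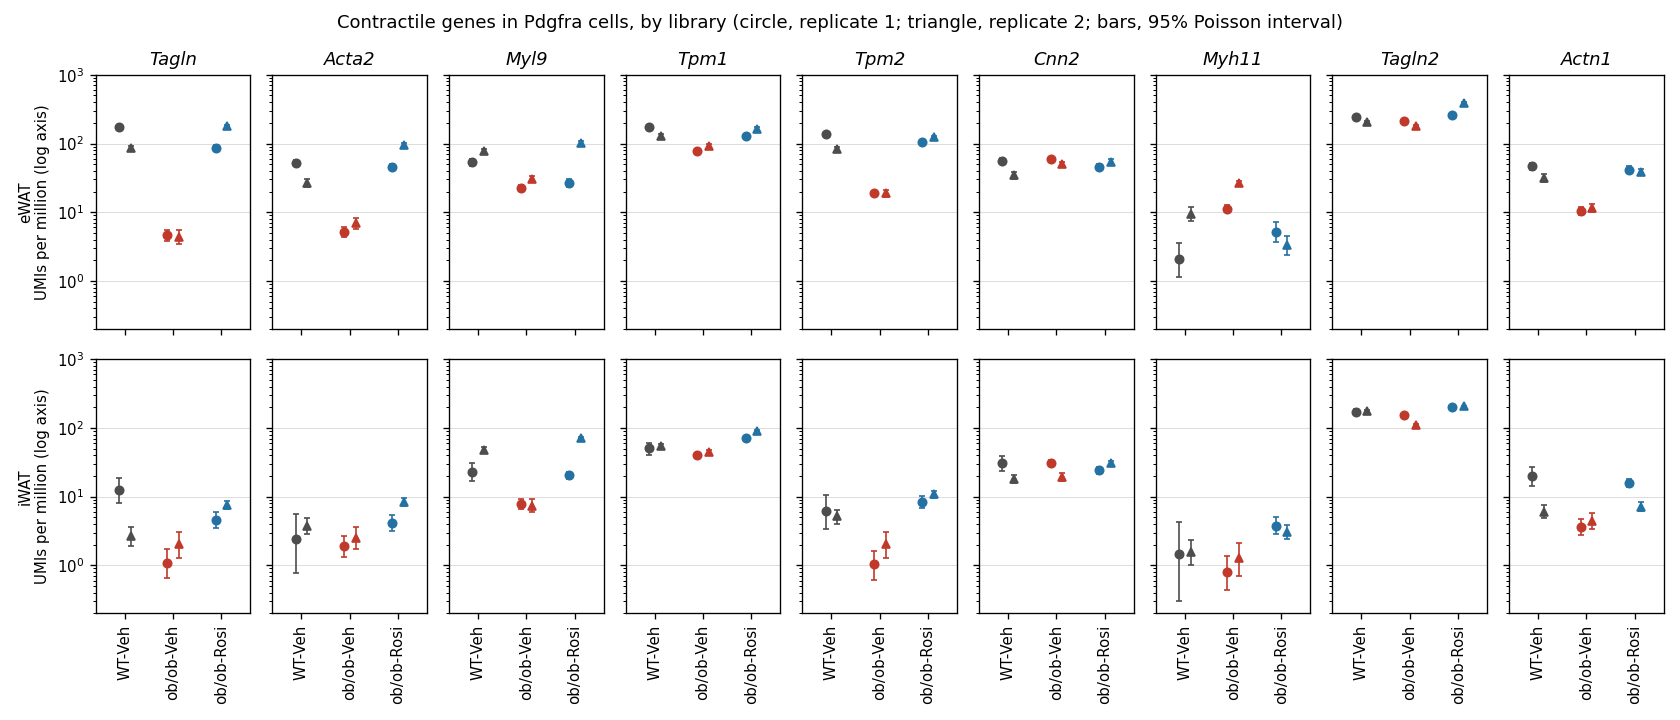
Level of each of the 9 genes in Pdgfra cells of every library, in CPM on a log axis, with eWAT above and iWAT below. Circles are replicate 1, triangles are replicate 2 and bars are 95% Poisson intervals, which cover counting error only. In eWAT both ob/ob-Veh libraries sit at 4.61 and 4.33 for Tagln, below the other 4 libraries at 86.5 to 180.4, and in iWAT all 6 libraries sit at 12.5 or below.

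Several other values moved with these levels, and their part in them was not tested. The summed level of the 14 mural markers in eWAT Pdgfra cells was 514 and 673 CPM in WT-Veh, 148 and 293 CPM in ob/ob-Veh, and 620 and 898 CPM in ob/ob-Rosi, with 13 or 14 of 14 markers seen in each library. The 6 pericyte markers, all in that list too, were at 152 and 206, 35.9 and 78.3, and 203 and 416 CPM, and the 10 preadipocyte markers at 13346 and 14062, 4159 and 5873, and 10666 and 12415 CPM, all seen in each library. Both lists were lowest in ob/ob-Veh, as Tagln was. The 6 smooth muscle markers were highest in ob/ob-Veh instead, at 52.6 and 84.6, 102 and 148, and 72.3 and 89.1 CPM, with 4 to 6 seen. The 9 mesothelial markers moved the other way, at 54.0 and 53.5, 180 and 185, and 57.3 and 36.6 CPM, with 6 to 9 seen. Myeloid markers were at 4625 and 4490, 1490 and 2291, and 3551 and 4849 CPM.

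In eWAT the share of Pdgfra cells with a Tagln UMI was 6.86% and 7.40% in WT-Veh, 1.09% and 1.28% in ob/ob-Veh, and 5.17% and 13.2% in ob/ob-Rosi, at median depths of 1319 and 3821, 6633 and 4856, and 2298 and 4596 UMIs. With each cell thinned to 700 UMIs the shares were 4.01% and 2.37%, 0.194% and 0.394%, and 1.74% and 4.78%. Thinned myeloid cells gave 0.248% to 0.623%, so WT-Veh and ob/ob-Rosi were above that background and ob/ob-Veh was not.

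Most of the Tagln RNA came from few cells. Pdgfra cells with at least 5 Tagln UMIs, a threshold chosen after the values were seen, made up 1.41% and 1.89% of WT-Veh, 0.0727% and 0.0986% of ob/ob-Veh, and 1.13% and 3.61% of ob/ob-Rosi Pdgfra cells. They numbered 51 and 32, 3 and 3, and 28 and 90 cells, and they held 72.8% and 81.5%, 56.7% and 35.1%, and 78.5% and 83.5% of all Tagln UMIs of the class. The iWAT libraries together had 8 such cells. In WT-Veh and ob/ob-Rosi most of the Tagln RNA of the class thus lay in few cells.

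Of the 207 eWAT cells with at least 5 Tagln UMIs, 161 lay in cluster 1, led by Ndufa4l2, Timp1 and Cxcl14, 20 in cluster 17, 16 in cluster 32 and 7 in cluster 4. They were deep cells, with a median of 3953 and 11007 UMIs in WT-Veh and 8050 and 9689 UMIs in ob/ob-Rosi. In the 83 WT-Veh and 118 ob/ob-Rosi cells, Acta2 was seen in 68.7% and 78.8%, Tpm2 in 88.0% and 82.2%, and the mural receptor gene Notch3 in 42.2% and 59.3%. Myh11 and Cnn1, known from mature smooth muscle, were seldom seen there. Myh11 had a UMI in 2.41% of the WT-Veh cells and in 0 of 118 ob/ob-Rosi cells, which allows a share of up to 2.54% of cells with a UMI and does not limit expression. Over all Pdgfra cells, which were shallower, the Myh11 shares were 0.360% and 3.14% in WT-Veh and 1.33% and 1.48% in ob/ob-Rosi. In the 83 and 118 cells Cnn1 was never seen, the mural marker Rgs5 was seen in 2.41% and 0.847%, and the pericyte marker Kcnj8 in none. The 14 mural markers, of which 12 were seen in each group of these cells, nevertheless summed to 827 and 1050 CPM. In the remaining Pdgfra cells they summed to 597 and 779 CPM. The 6 pericyte markers, which include the cluster 1 gene Ndufa4l2, summed to 271 and 284 CPM in these cells, beside 179 and 340 CPM in the remaining Pdgfra cells. The 6 smooth muscle markers, 4 of them seen in each group, summed to 49.3 and 94.3 CPM in these cells, beside 71.8 and 82.2 CPM. Their summed Pdgfra-cell markers, at 38164 and 33855 CPM, stood beside 40717 and 43930 CPM in the remaining Pdgfra cells. The 6 ob/ob-Veh cells, 3 per library, lay in clusters 7, 8 and 17 and had Myh11 in 83.3%, Cnn1 in 3 cells and a summed Pdgfra-marker level of 17182 CPM against 35995 CPM in the rest. Mural markers summed to 3227 CPM in these 6 cells, against 202 CPM in the rest.

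Acta2 was seen more often in cells with a Tagln UMI than in the others, though most cells with Tagln showed none. Among eWAT Pdgfra cells with a Tagln UMI, 27.0% and 31.2% of WT-Veh, 11.1% and 12.8% of ob/ob-Veh, and 32.8% and 37.9% of ob/ob-Rosi cells also had an Acta2 UMI. Among the other Pdgfra cells the shares were 2.20% and 1.98%, 0.784% and 1.37%, and 2.30% and 8.00%. Cells that carry both are also the deeper cells, and that was not separated here. Cells with Tagln, Acta2 and Myh11 together numbered 1 to 4 per library.

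The groups did not populate the same eWAT clusters. Cluster 1 carried the preadipocyte markers Fabp4, Col4a2, Plin2 and Sparcl1, but beside 8 of 10 Pdgfra-cell markers it also held at least 3 of the 14 mural markers, among them its leading gene Ndufa4l2, and so did cluster 32. The WT-Veh libraries had 1137 and 745 cells in it, those of ob/ob-Rosi 610 and 1848, and those of ob/ob-Veh a mere 23 and 22. Cluster 4 held the preadipocyte markers Cd36, Col4a1, Col4a2 and Lpl but was led by macrophage transcripts (Ccl8, Tyrobp), so it is called by its number. It was likewise mostly WT-Veh and ob/ob-Rosi. Clusters 8 (Agt, Trf, Igf1) and 16 (Retnla, Lyz1), also unnamed, held almost only ob/ob-Veh cells, with 1606 and 1409 cells in cluster 8. The low class-wide level in ob/ob-Veh was thus measured largely in other clusters than those of WT-Veh and ob/ob-Rosi.

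Within cluster 1, Tagln was at 320.0 and 114 CPM in WT-Veh, 84.5 and 0 CPM (95% Poisson upper bound 26.4) in the 23 and 22 ob/ob-Veh cells, and 149 and 172 CPM in ob/ob-Rosi. Acta2 there was at 87.1 and 32.0, 47.0 and 35.8, and 74.6 and 84.98 CPM, with WT-Veh and ob/ob-Veh overlapping. In cluster 7, the progenitor-like cells marked by Pi16, Dpp4 and Efhd1, all 3 groups had over 60 cells per library. Tagln was low there, at 23.1 and 11.6 CPM in WT-Veh, 1.76 and 4.52 CPM in ob/ob-Veh, and 13.4 and 12.2 CPM in ob/ob-Rosi, so both ob/ob-Veh libraries were below the rest and inside the myeloid range or under it. Acta2 stayed at 1.06 to 9.18 CPM with overlapping groups.

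Tpm2 showed a clear separation inside cluster 7. It was at 117 and 109.8 CPM in WT-Veh, 22.4 and 25.5 CPM in ob/ob-Veh, and 102 and 138 CPM in ob/ob-Rosi, so both ob/ob-Veh libraries were below the rest. Actn1 there was at 36.5 and 24.3, 10.6 and 12.9, and 26.8 and 21.4 CPM in the same order. Tagln, Tpm2 and Actn1 thus kept the order of the whole class within a cluster that every library filled, with 65 cells in ob/ob-Rosi replicate 2. The share of all genes with that order in cluster 7 was not counted, so nothing is read from it. Of the other members, Acta2 alone is given for this cluster. For Actn1 these levels were about those of myeloid cells or lower, in the same order. Lymphoid cells of eWAT, which should lack Tagln, read 2.66 to 20.4 CPM of it. Their means were 9.11 CPM in WT-Veh, 4.51 CPM in ob/ob-Veh and 14.6 CPM in ob/ob-Rosi. The order of Tagln in cluster 7 was thus not shown to belong to its cells.

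Cluster 17, an unnamed stromal cluster led by Mfap4 and Cpxm2, did not follow the class, and its ob/ob-Veh values rest on 81 and 128 cells. Among these were 2 and 1 of the 6 ob/ob-Veh cells with at least 5 Tagln UMIs. Mural markers summed to 3227 CPM in those 6 cells, against 202 CPM in the remaining ob/ob-Veh Pdgfra cells. The part of such cells in the levels of cluster 17 was not tested. Tagln was at 106 and 67.4 CPM in WT-Veh, 192 and 38.6 CPM in ob/ob-Veh, and 13.9 and 226 CPM in ob/ob-Rosi, with no order of groups. Acta2 was highest in ob/ob-Veh there, at 261 and 114 CPM, against 34.6 and 13.5 CPM in WT-Veh and 0 (upper bound 6.40) and 67.6 CPM in ob/ob-Rosi, and Myh11 stood at 127 and 71.7 CPM in ob/ob-Veh against at most 10.5 CPM in the other libraries. Cluster 32, 53 dividing cells led by Hist1h2ap and Cenpf, reached 969 CPM of Tagln and 871 CPM of Acta2 in ob/ob-Rosi replicate 2, the 1 library with at least 20 such cells, where Myh11 was at 0 (upper bound 12.9).

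**Figure D2:**
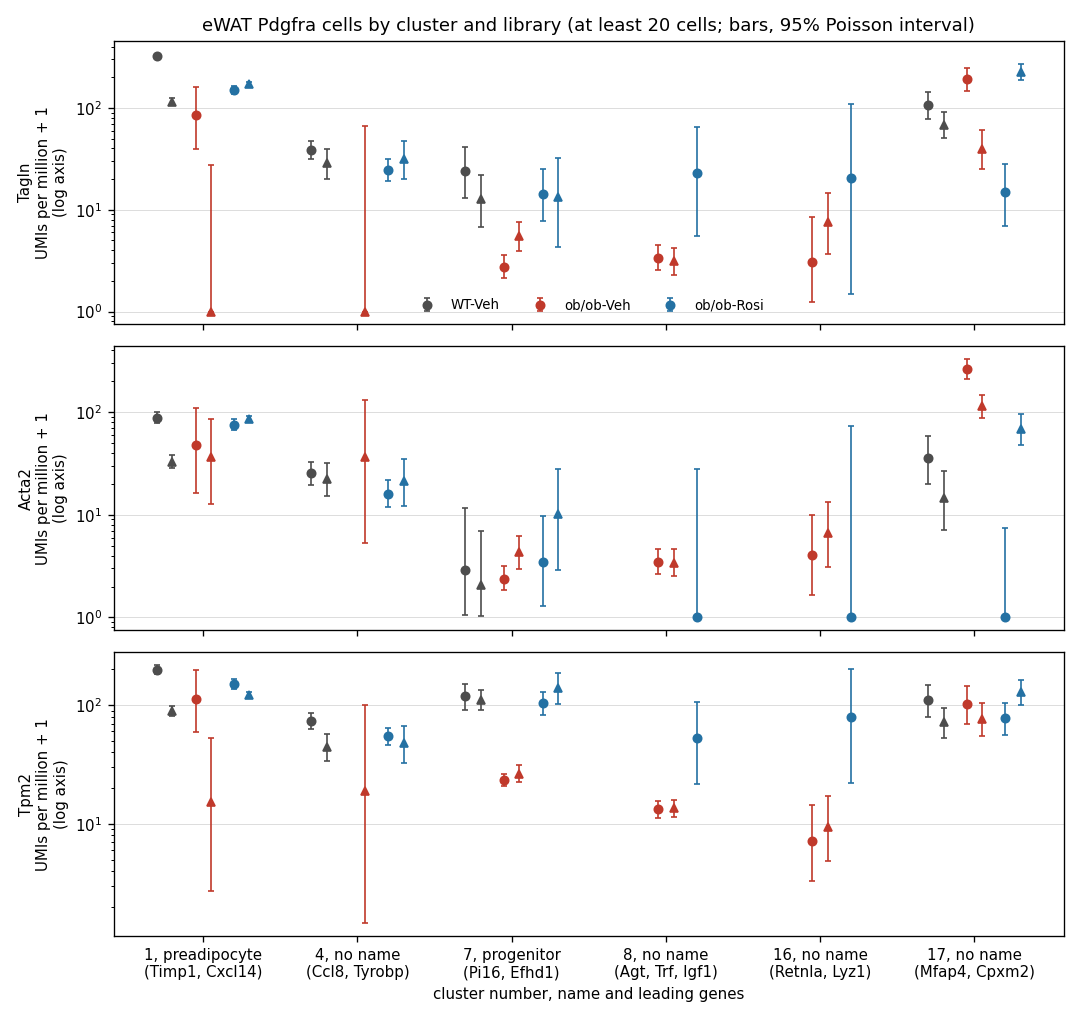
Tagln, Acta2 and Tpm2 in eWAT Pdgfra clusters, in CPM plus 1 on a log axis, for libraries with at least 20 cells in the cluster. Circles are replicate 1, triangles are replicate 2, and bars are 95% Poisson intervals. In cluster 7 the ob/ob-Veh libraries lie at 22.4 and 25.5 for Tpm2 and the others at 102 to 138, whereas in cluster 17 the groups overlap for Tagln and Tpm2.

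In iWAT Pdgfra cells Tagln and Acta2 were low, and in most libraries no higher than in myeloid cells. Tagln was at 12.5 and 2.70 CPM in WT-Veh, 1.098 and 2.02 CPM in ob/ob-Veh, and 4.64 and 7.54 CPM in ob/ob-Rosi, and myeloid cells of iWAT read 2.91 to 4.85 CPM. The highest value, with a 95% Poisson interval of 8.19 to 18.4 CPM, came from WT-Veh replicate 1. In that library 1 of 396 Pdgfra cells held 76.9% of the 26 Tagln UMIs, and the interval does not cover such clumping. Without that library WT-Veh stood at 2.70 CPM. In ob/ob-Rosi replicate 2 both Tagln (interval 6.50 to 8.70 CPM) and Acta2 (8.38 CPM, interval 7.28 to 9.59) were also above every myeloid value. There 6 of 6702 Pdgfra cells held 39.7% of the Tagln UMIs. Lymphoid cells of iWAT, which should lack both genes too, read 3.27 to 23.2 CPM of Tagln and 4.16 to 11.6 CPM of Acta2 on fewer UMIs, and every iWAT Pdgfra value was within or below those ranges. Acta2 ran from 1.91 to 8.38 CPM, against 3.25 to 5.56 CPM in myeloid cells, and thinned shares of cells with a Tagln UMI were 0.0674% to 0.649% against at most 0.547% in myeloid cells.

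In iWAT 7 of the 9 members were lower in both ob/ob-Veh libraries than in both WT-Veh ones, Acta2 and Cnn2 being the exceptions, and all but Cnn2 were higher in both ob/ob-Rosi libraries than in both ob/ob-Veh ones. Such separation was common with 2 libraries a group: of all 13540 genes tested, 20% were lower in both ob/ob-Veh libraries than in WT-Veh, and 26.5% were higher in both ob/ob-Rosi libraries than in ob/ob-Veh, while 25.6% and 34.7% separated in the opposite direction. Myl9 was at 23.2 and 48.4 CPM in WT-Veh, 7.86 and 7.41 CPM in ob/ob-Veh, and 20.5 and 70.7 CPM in ob/ob-Rosi, all above the 2.33 to 6.20 CPM of myeloid cells. Tpm1 was at 50.2 and 53.7, 39.7 and 44.1, and 70.6 and 89.8 CPM. Tpm2 was lower, at 6.27 and 5.14, 1.04 and 2.02, and 8.44 and 10.9 CPM, where myeloid cells gave 0.538 to 10.7 CPM in the same libraries. For each of the 3 both ob/ob-Veh libraries were the lowest of the 6.

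Actn1 was at 19.8 and 6.06 CPM in WT-Veh, 3.64 and 4.46 CPM in ob/ob-Veh, and 15.7 and 7.18 CPM in ob/ob-Rosi. Tagln2 was at 170.3 and 176, 155 and 109, and 201 and 205 CPM, and Myh11 at 1.45 and 1.58, 0.809 and 1.26, and 3.80 and 3.07 CPM. Cnn2 ran from 18.1 to 31.1 CPM with overlapping groups.

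The iWAT groups also lay in different Pdgfra clusters. An unnamed cluster led by Il1r2 held 1698 and 1975 ob/ob-Veh cells and 18 to 59 cells of each other library, while a progenitor-like cluster with Pi16 and Wnt2 held 95 and 1902 WT-Veh, 773 and 3188 ob/ob-Rosi and a mere 16 and 29 ob/ob-Veh cells. The summed preadipocyte markers were at 19103 and 11199 CPM in WT-Veh, 1594 and 4132 CPM in ob/ob-Veh, and 9161 and 7174 CPM in ob/ob-Rosi. Pericyte markers were at 52.1 and 59.2, 36.7 and 52.4, and 137 and 160 CPM, and mural markers at 237 and 158, 143 and 204, and 345 and 321 CPM. Smooth muscle markers were at 67.5 and 384, 130 and 138, and 144 and 326 CPM, with overlapping groups. Endothelial markers were at 110.0 and 59.1, 13.1 and 46.3, and 111 and 101 CPM, and the part of all these in the group values was not tested.

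As in eWAT, these group differences are a description, and nothing is read from the counts. By edgeR none of the 9 members was called between ob/ob-Veh and WT-Veh in iWAT, where 0.369% of 13540 genes were called, and Tpm2 alone was called in ob/ob-Rosi against ob/ob-Veh (log2 change 2.77 ± 0.40), where 0.598% were called, 0.377% higher. By DESeq2 the counts were 2 and 3, with 630 and 1019 genes called in all, against 50 and 81 by edgeR. Leaving out either WT-Veh iWAT library gave 2 members for ob/ob-Veh, with 850 or 430 genes in all, and 7 members for the Rosi comparison, with 1666 or 1639 genes in all. Leaving out any 1 of the 4 ob/ob iWAT libraries gave 0 in both.

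The depots were compared over the 3 groups in a fit of all 12 libraries. In Pdgfra cells 6 of the 8 members other than Tagln were lower in iWAT than in eWAT and none was higher, where 16.9% of 14114 genes were called in either direction and 8.11% lower. Tpm2 fell by 3.80 ± 0.21 on the log2 scale (adjusted p = 7.52e-07, edgeR) and Acta2 by 2.76 ± 0.29 (adjusted p = 7.37e-05). Tagln had a log2 difference of −3.45 ± 0.37, given with no p because the gene was picked on levels in these same cells. Myh11 fell by 2.05 ± 0.34, Actn1 by 1.63 ± 0.27, Tpm1 by 1.09 ± 0.15 and Cnn2 by 0.92 ± 0.21, with adjusted p from 0.000368 to 0.0112. For Myh11 the depots overlapped in ob/ob-Rosi, at 5.22 and 3.33 CPM in eWAT and 3.80 and 3.07 CPM in iWAT. It was at 11.3 and 26.3 against 0.809 and 1.26 CPM in ob/ob-Veh, and at 2.12 and 9.44 against 1.45 and 1.58 CPM in WT-Veh. Myl9 (log2 difference −0.98 ± 0.37, adjusted p = 0.0979) and Tagln2 (−0.48 ± 0.18, adjusted p = 0.0891) did not pass.

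By group, WT-Veh read 172 and 86.5 CPM of Tagln in eWAT and 12.5 and 2.70 CPM in iWAT, while ob/ob-Veh read 4.61 and 4.33 CPM and 1.098 and 2.02 CPM, values at background in both depots, and whether the depot difference varied by group was not tested. Every eWAT library was above every iWAT library for Tpm2, from 18.8 to 138 CPM against 1.04 to 10.9 CPM. Mesothelial cells, which carry Tagln, Acta2 and the tropomyosins, formed 0.507% to 6.49% of eWAT cells and 0.0102% to 0.217% of iWAT cells. The summed mesothelial markers in Pdgfra cells were at 36.6 to 185 CPM in eWAT and 2.36 to 14.9 CPM in iWAT. The mural markers were at 148 to 898 CPM and 143 to 345 CPM, and the smooth muscle markers at 52.6 to 148 CPM in eWAT and 67.5 to 384 CPM in iWAT. The part of these in the difference was not tested.

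In eWAT mural cells Acta2, Myl9 and Myh11 rose in ob/ob-Veh against WT-Veh, and Acta2, Tpm2 and Myh11 fell in ob/ob-Rosi against ob/ob-Veh. Acta2 was at 215 and 7.85 CPM in WT-Veh, 873 and 422 CPM in ob/ob-Veh, and 48.2 and 80.1 CPM in ob/ob-Rosi. Both ob/ob-Veh libraries were above all the others, and the 2 WT-Veh libraries were far apart. In ob/ob-Veh against WT-Veh it rose by 3.08 ± 0.70 on the log2 scale (SE, n = 2 against 2, edgeR adjusted p = 0.0155). In ob/ob-Rosi against ob/ob-Veh it fell by 3.19 ± 0.66 (adjusted p = 0.00772). These Acta2 values rest on few cells. In each WT-Veh library 4 cells held an Acta2 UMI, and the counts were 13 and 14 cells for ob/ob-Veh. All 5 Acta2 UMIs of ob/ob-Rosi replicate 1 came from 1 cell, and 13 cells of replicate 2 held 90. Of the ob/ob-Veh cells, 23 with at most 1 endothelial marker held 484 Acta2 UMIs, beside 111 UMIs in the rest.

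Myh11 was at 103 and 69.0 CPM in WT-Veh, 509 and 303 CPM in ob/ob-Veh, and 144 and 99.7 CPM in ob/ob-Rosi. Both ob/ob-Veh libraries were above the other 4, and replicates were closer than for Acta2. It rose by 2.30 ± 0.39 in ob/ob-Veh (adjusted p = 0.00103) and fell by 1.85 ± 0.37 in ob/ob-Rosi (adjusted p = 0.00585), both by edgeR. Myl9 was at 215 and 135, 591 and 390.0, and 202 and 255 CPM. It rose by 1.52 ± 0.36 in ob/ob-Veh (adjusted p = 0.0195), and its log2 difference of −1.08 ± 0.34 in ob/ob-Rosi did not pass (adjusted p = 0.121).

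Tpm2, at 223 and 33.0 CPM in WT-Veh, 372 and 201 CPM in ob/ob-Veh, and 77.1 and 47.2 CPM in ob/ob-Rosi, fell in ob/ob-Rosi by 2.40 ± 0.55 (adjusted p = 0.0192, edgeR). WT-Veh replicate 1 lay inside the ob/ob-Veh range, and the difference of ob/ob-Veh from WT-Veh was 1.52 ± 0.54 (adjusted p = 0.173).

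Tagln itself was not called in mural cells. It was at 501 and 36.1 CPM in WT-Veh, 681 and 481 CPM in ob/ob-Veh, and 48.2 and 205 CPM in ob/ob-Rosi. The WT-Veh libraries lay far apart, with replicate 1 inside the ob/ob-Veh range, and the log2 differences were 1.30 ± 0.63 (adjusted p = 0.347) and −1.96 ± 0.62 (adjusted p = 0.12). In WT-Veh replicate 1 a mere 11.1% of 45 mural cells held its 63 Tagln UMIs, whereas in ob/ob-Veh 62.2% and 32.0% of mural cells had a Tagln UMI, and in the other 3 libraries 10.6% to 15.8%.

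Tpm1, Cnn2 and Actn1 had positive log2 differences of 1.19, 1.35 and 1.35 in ob/ob-Veh and negative ones of −1.11, −1.20 and −1.005 in ob/ob-Rosi, and none passed the test. Tagln2, the non-muscle relative, stayed between 359.5 and 663 CPM, with differences of −0.29 ± 0.32 and 0.31 ± 0.32. In all, 3 of 9 members rose in ob/ob-Veh, where 2.09% of 7030 genes were called in either direction and 1.24% higher. In ob/ob-Rosi 3 of 9 fell, where 1.55% were called and 1.01% lower. The median log2 difference of the 9 was 1.35 and −1.20, beside 0.01 and −0.03 over all genes tested.

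Individual libraries decided several of these calls. Where a group is left with 1 library, that library is assumed to vary like those of the other groups. The rise of Acta2 in ob/ob-Veh was 1.4996 without WT-Veh replicate 2 (adjusted p = 0.109, edgeR), and that of Myl9 did not pass without it (adjusted p = 0.317), nor, at 1.15 (adjusted p = 0.405), without ob/ob-Veh replicate 1, while Tagln was called at 3.93 without WT-Veh replicate 1 (adjusted p = 7.12e-10). Without ob/ob-Rosi replicate 2 none of the 3 falls passed, with Acta2 at −3.77, Tpm2 at −1.89 and Myh11 at −1.51. Acta2 was not called without ob/ob-Rosi replicate 1 (−2.95, adjusted p = 0.0589), nor Tpm2 (−1.84, adjusted p = 0.115) and Myh11 (−1.37, adjusted p = 0.245) without ob/ob-Veh replicate 1. With DESeq2 in place of edgeR the Acta2 changes of 2.53 and −3.35 and the Tpm2 change of −2.27 did not pass. With cells thinned to 700 UMIs the rise of Myl9 (adjusted p = 0.127, edgeR) and the falls of Acta2, Tpm2 and Myh11 (adjusted p = 0.0757 to 0.138) did not pass either.

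**Figure D3:**
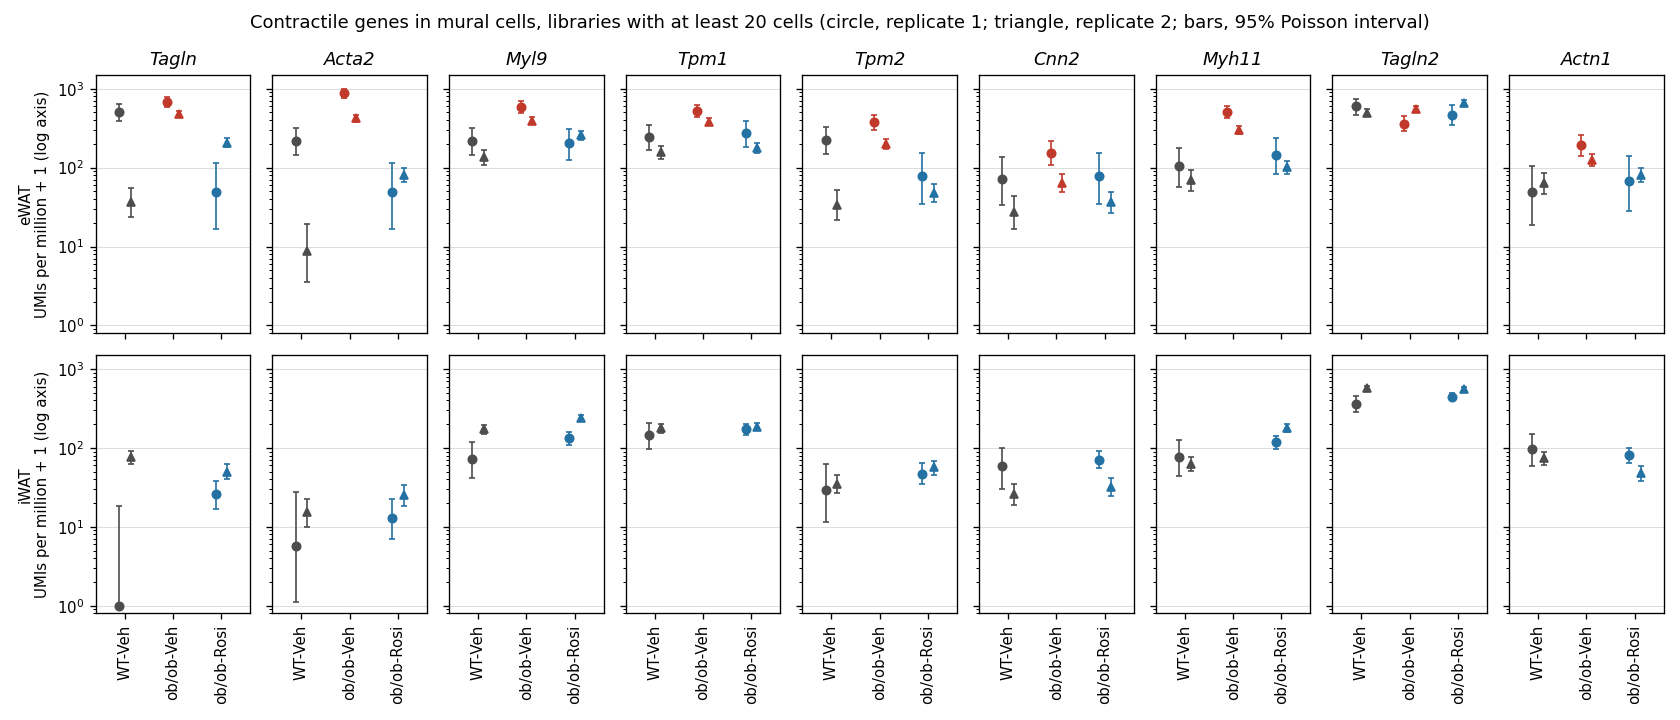
Level of each of the 9 genes in mural cells, in CPM plus 1 on a log axis, for libraries with at least 20 mural cells, which leaves out ob/ob-Veh in iWAT. Circles are replicate 1, triangles are replicate 2 and bars are 95% Poisson intervals. In eWAT both ob/ob-Veh libraries are the highest for Acta2, Myh11, Myl9, Tpm1 and Actn1, and the WT-Veh libraries lie at 215 and 7.85 for Acta2. The share of all genes with that order was not counted.

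Values of other markers moved with these mural differences. The summed mural markers were at 1947 and 2638 CPM in WT-Veh, 8792 and 6518 CPM in ob/ob-Veh, and 4845 and 4373 CPM in ob/ob-Rosi, with 12 to 14 of 14 seen. The 6 pericyte markers were at 986 and 1350, 1982 and 1631, and 1955 and 1942 CPM, so that ob/ob-Veh and ob/ob-Rosi overlapped. The 6 smooth muscle markers were at 71.5 and 148, 535 and 521, and 202 and 264 CPM, highest in both ob/ob-Veh libraries. The 6 adipocyte genes were at 95.4 and 61.2, 1044 and 1007, and 19.3 and 18.7 CPM, and the 10 endothelial genes at 10865 and 8761, 6433 and 8369, and 9160 and 9203 CPM. The mural cells of the groups also came from different sub-clusters: of 114 cells in a sub-cluster led by Rgs5, Abcc9 and Notch3, 25 and 78 were from the ob/ob-Veh libraries, while a sub-cluster of 258 cells led by Gja4 and Ndufa4l2 held 0 and 4 cells of them. A change in the mix of pericytes and smooth muscle cells, the share of mural RNA per droplet and a change of level per cell cannot be told apart here.

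Set against the mural markers instead of all UMIs, the order of the groups changed. Per 1000 mural-marker UMIs, Acta2 was at 110.2 and 2.97 in WT-Veh, 99.3 and 64.8 in ob/ob-Veh, and 9.94 and 18.3 in ob/ob-Rosi. Myh11 was at 53.1 and 26.2, 57.9 and 46.4, and 29.8 and 22.8, and Myl9 at 110.2 and 51.2, 67.2 and 59.8, and 41.7 and 58.2. On this scale ob/ob-Veh stayed above ob/ob-Rosi for these 3 genes, and it overlapped WT-Veh. The same held for Tagln, Tpm1 and Tpm2. Actn1 in ob/ob-Veh was above ob/ob-Rosi but below WT-Veh, Cnn2 overlapped in all groups, and Tagln2 was lowest in both ob/ob-Veh libraries. The values of WT-Veh replicate 1 rest on 245 mural-marker UMIs.

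The eWAT mural cells with at most 1 endothelial marker were few, 25 in WT-Veh, 23 in ob/ob-Veh and 33 in ob/ob-Rosi, and carried Tagln, Acta2 and Myh11 at much higher levels. Summed over both replicates, Acta2 was at 701 CPM (95% Poisson interval 449 to 1043) in WT-Veh, 7112 (6492 to 7774) in ob/ob-Veh and 1674 (1310.1 to 2109) in ob/ob-Rosi. Myh11 was at 379.7 (202 to 649), 3379 (2957 to 3846) and 581 (376 to 858) CPM, and Tagln at 2220 (1749 to 2779), 4863 (4354 to 5417) and 2698 (2229 to 3236) CPM. In the droplets with more endothelial markers Tagln was at 13.7, 250.2 and 101 CPM and Acta2 at 11.0, 102 and 19.4 CPM. By library, Tagln in the droplets with few endothelial markers was at 5545 and 646 CPM in WT-Veh, 3158 and 6555 CPM in ob/ob-Veh, and 446 and 3291 CPM in ob/ob-Rosi, so that the groups overlapped. Acta2 there was at 2091 and 43.0 CPM in WT-Veh, on 23 and 1 UMIs. It was at 5696 and 8515 CPM in ob/ob-Veh and at 558 and 1968.5 CPM in ob/ob-Rosi. Acta2 and Myh11 were highest in both ob/ob-Veh libraries, though the WT-Veh libraries lay far apart for Acta2. In the other droplets both ob/ob-Veh libraries were the highest for all 3 genes, and Myh11 there was at 60.4, 155 and 86.2 CPM by group. The intervals cover counting error only, not the spread between mice. Among the droplets with more than 1 endothelial marker, taken alone after the data were seen, Tagln rose by 4.16 ± 0.54 in ob/ob-Veh (adjusted p = 6.95e-05, edgeR), whereas Myh11 (1.14, adjusted p = 0.142) and Myl9 (1.28, adjusted p = 0.0516) did not pass. In ob/ob-Rosi Tagln fell by 1.59 ± 0.39 in them (adjusted p = 0.0428), and Tpm2 (−1.48, adjusted p = 0.0727) and Myh11 (−0.72, adjusted p = 0.336) did not pass.

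**Figure D4:**
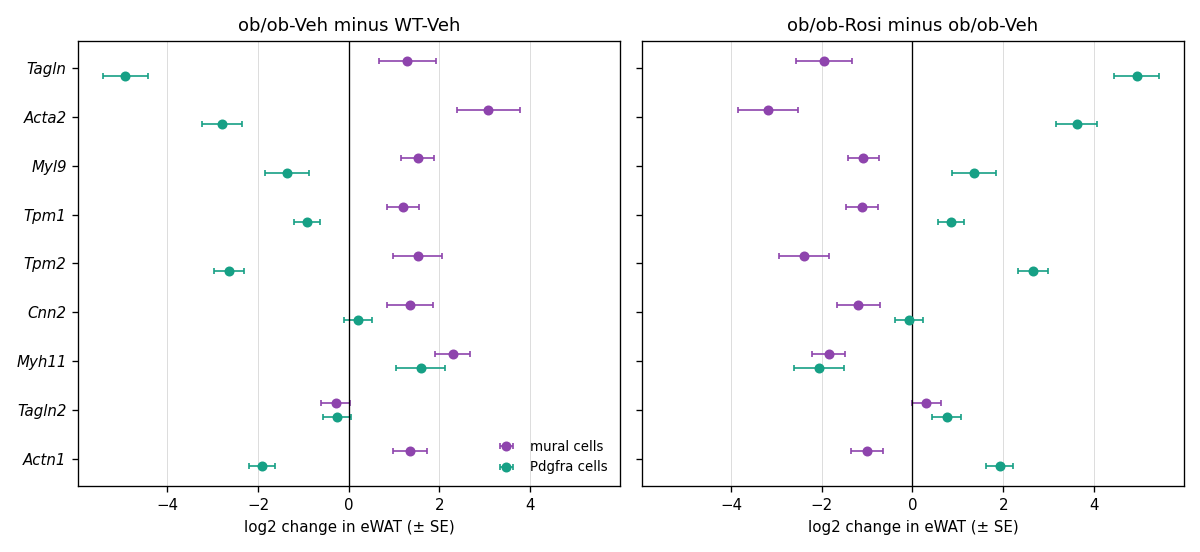
Fitted log2 change of each gene in eWAT mural cells and Pdgfra cells, for ob/ob-Veh minus WT-Veh on the left and ob/ob-Rosi minus ob/ob-Veh on the right, with bars of 1 standard error. Both panels share the ob/ob-Veh libraries. Acta2 lies at 3.08 and −2.80 on the left and at −3.19 and 3.62 on the right for mural and Pdgfra cells, while Myh11 has the same sign in both cell classes.

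In a comparison added after the data were seen, none of the 9 members was called in mural cells between ob/ob-Rosi and WT-Veh, in eWAT (log2 differences −0.88 to 0.44, 0.384% of all genes called) or in iWAT (−0.44 to 1.16, 0.744% called), by edgeR. At an unadjusted p under 0.05 the fits counted 504 of 7030 genes in eWAT and 723 of 9268 in iWAT, and DESeq2 called 0 members in each. On simulated data these fits recovered 5% and 6% of genes changed 2-fold. The lack of calls therefore does not show equal levels. The eWAT values rested on single libraries, since Tagln and Acta2 were called higher in ob/ob-Rosi without WT-Veh replicate 1 (2.01 and 3.11), and Tagln and Tpm2 lower without WT-Veh replicate 2 (−1.83 and −2.12). In iWAT, Myh11 had the largest difference, with 76.3 and 61.7 CPM in WT-Veh and 118 and 176 CPM in ob/ob-Rosi (log2 difference 1.16 ± 0.36, adjusted p = 0.205). Tagln was at 0 CPM (95% Poisson upper bound 17.6) and 75.4 CPM in WT-Veh and 24.8 and 49.1 CPM in ob/ob-Rosi, and Acta2 at 4.77 and 14.4 CPM and 11.9 and 24.6 CPM. Without WT-Veh iWAT replicate 2, Tagln was called higher in ob/ob-Rosi against a library with no Tagln UMI, so its fitted value is no bound. The iWAT mural cells of WT-Veh lay mostly in a sub-cluster of 161 cells led by Ffar2, Ephx2 and Tusc5 that no ob/ob library entered.

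Between depots, over WT-Veh and ob/ob-Rosi, 0 of 9 members were called in mural cells by edgeR, with 0.268% of 9315 genes called, 407 genes at an unadjusted p under 0.05 and 0 members by DESeq2. Acta2 had a log2 difference of −2.22 ± 0.60 in iWAT against eWAT (adjusted p = 0.251) and Tagln one of −2.06 ± 0.58 (adjusted p = 0.29), while Myh11 stood at 0.06 ± 0.28. Both Acta2 (−2.98) and Tagln (−2.62) were called without WT-Veh eWAT replicate 2, the library low in both genes, and Tagln without WT-Veh iWAT replicate 2, which leaves WT-Veh in iWAT with a library that had no Tagln UMI, so that no size is given. At most 1 endothelial marker was seen in 81 of 486 eWAT mural cells and in 0 of 570 iWAT ones, and the part of this in the depot values was not tested.

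Mesothelial cells, the lining of the epididymal fat pad, expressed Tagln and Acta2 too. In eWAT they had Tagln at 504 and 241 CPM in WT-Veh, 77.8 and 107 CPM in ob/ob-Veh, and 143 and 688 CPM in ob/ob-Rosi, and Acta2 between 166 and 387 CPM in overlapping groups. As in Pdgfra cells, Tagln was lowest in both ob/ob-Veh libraries, and this was not tested. Endothelial cells read 9.43 to 23.0 CPM of Tagln and lymphoid cells 2.66 to 20.4 CPM in eWAT.

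**Figure D5:**
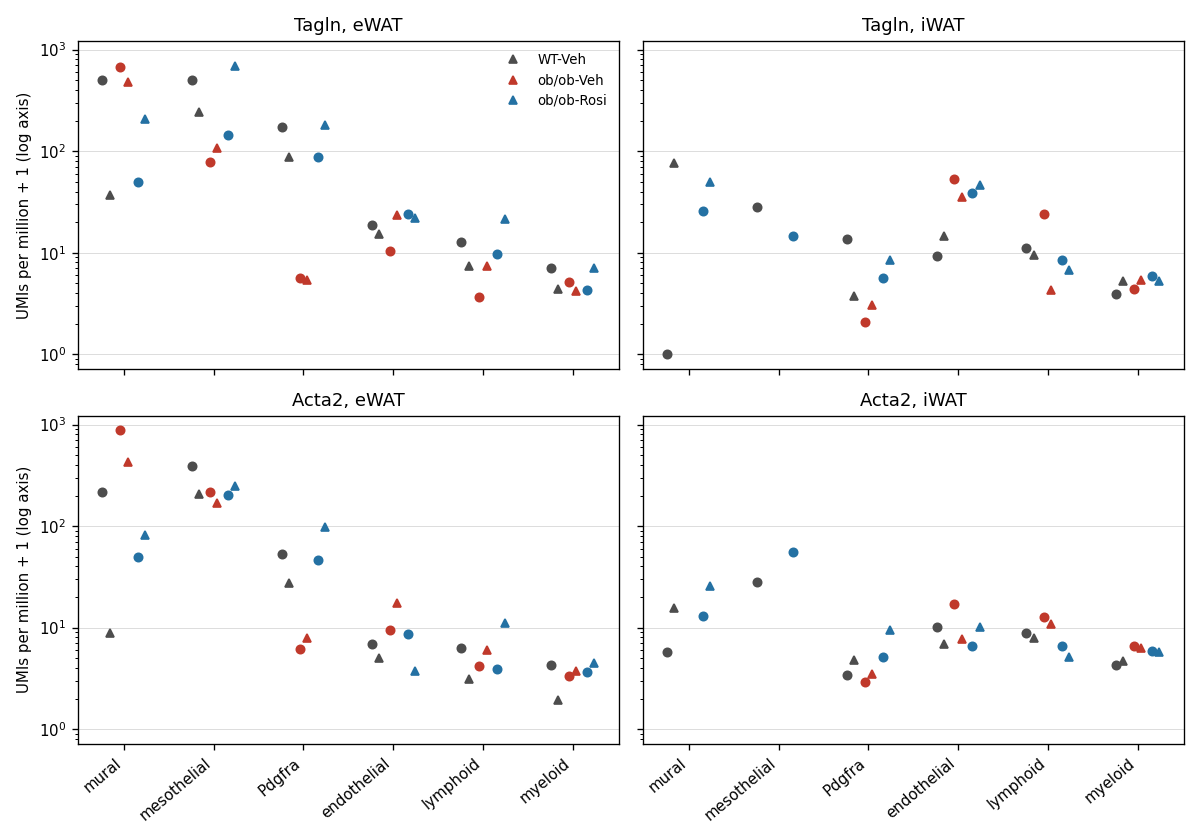
Tagln and Acta2 by cell class and depot, in CPM plus 1 on a log axis, with circles for replicate 1 and triangles for replicate 2 of each library with at least 20 cells of the class. In eWAT, ob/ob-Veh is among the highest in mural cells and lies with the myeloid cells (3.17 to 6.08 CPM) in Pdgfra cells for Tagln, and in iWAT Pdgfra cells stay at 12.5 CPM or below for both genes.

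A list of 45 further contractile genes, chosen with earlier results of these data known, gave the surroundings of the 9. In eWAT mural cells 2 of 38 tested rose in ob/ob-Veh, where 1.24% of all genes were called higher: Ppp1r12b, a subunit of myosin phosphatase (2.05 ± 0.43, adjusted p = 0.00912, edgeR), and Lpp, a focal adhesion protein (1.29 ± 0.34, adjusted p = 0.0442). Of the 38, 26 were above 0, with a median of 0.32 beside 0.01 over all genes. In ob/ob-Rosi Synpo2, an actin-bundling protein of the Z-disc, fell by 2.53 ± 0.57 (adjusted p = 0.0171, edgeR), the 1 call of 38 where 1.01% of all genes were called lower, 31 of 38 were below 0, and the median was −0.43 beside −0.03.

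In eWAT Pdgfra cells the wider list did not move as a block, and these counts are again a description. In ob/ob-Veh 4 of 41 tested were called higher, led by Lmod1 (2.82), Mylk (1.41) and Fhl1 (1.31), and 3 were called lower, namely Fhl2 (−2.96), Myh9 (−1.80) and Synpo2 (−1.56), where 2.93% of all genes were called higher and 4.27% lower. Lmod1 nucleates actin filaments in smooth muscle and Mylk encodes the kinase that switches on its myosin, whereas Myh9 is the non-muscle myosin heavy chain. In ob/ob-Rosi 3 were higher, Fhl2 (3.13), Synpo2 (1.39) and Myh9 (1.17), and 4 lower, led by Lmod1 (−3.88), Mylk (−1.44) and Ppp1r12b (−1.21), where the shares of all genes were 4.68% and 3.6%. The list's median was 0.27 and −0.15, against −1.37 and 1.36 for the 9 members.

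A second list of 12 matrix and signalling genes known as targets of TGF-beta, SRF or YAP held larger differences there. It too was chosen with earlier results of these data known. Its counts in Pdgfra cells come from the contrasts for which Tagln was picked, so they are a description and nothing is read from them. In ob/ob-Veh 6 of 12 were called lower and none higher, where 4.27% of all genes were called lower, led by Cthrc1 (−4.54), Col8a1 (−3.77) and Ltbp2 (−3.61), which encode proteins of the extracellular matrix. In ob/ob-Rosi 5 of 12 were called higher, where 4.68% of all genes were, led by the same genes (4.70, 3.84 and 2.97). In eWAT mural cells Fn1, fibronectin, fell in ob/ob-Rosi by 1.74 ± 0.38 (adjusted p = 0.0131, edgeR) and was the 1 gene called of 7 tested, and all 7 lay above 0 in ob/ob-Veh and below 0 in ob/ob-Rosi. In iWAT Pdgfra cells no gene of either list was called in these comparisons.

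In Pdgfra cells the lists differed between depots. Of the 42 contractile genes tested 15 were lower in iWAT and 4 higher, against 8.11% and 8.84% of all genes. The largest falls were those of Ppp1r14a, an inhibitor of myosin phosphatase (−4.22 ± 0.39, adjusted p = 2.46e-05), Actg2, the γ smooth muscle actin (−4.16 ± 1.24, adjusted p = 0.0437), and Des, desmin (−3.93 ± 0.22, adjusted p = 1.01e-06), by edgeR. Csrp2 (1.39), Fhl1 (0.90) and the SRF partner Mkl2 (0.73) were higher in iWAT. Of the 12 genes of the second list 3 were lower, Ltbp2 (−5.56), Col8a1 (−3.17) and Thbs1 (−2.42), where 8.11% of all genes were. The 2 called higher were Tgfbi (1.62) and Cyr61 (1.36), where 8.84% of all genes were.

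Across the 12 libraries the genes whose level in Pdgfra cells was most like that of Tagln were Stmn1 (Pearson r = 0.978 of log2(CPM + 1)), Timp1 (0.972), Ptpn1 (0.965), Rnf149 (0.964) and Fhl2 (0.964), among 6209 genes with a mean of at least 20 CPM. With depot means removed these were 0.960, 0.959, 0.933, 0.962 and 0.934. The genes most like Acta2 were Col8a1 (0.975), Nans (0.963), Cops5 (0.958), Tmed9 (0.953) and Aprt (0.952), and Tagln and Acta2 were at 0.943 to each other. The points are libraries that fall into groups and depots, so these values describe a shared order of 12 libraries and carry no test.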

How the data were processed

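Stromal vascular cells of eWAT and iWAT were profiled in 12 single-cell libraries, 2 biological replicates per group and depot. Per the labels and methods, the authors made the deposited counts of UMIs per gene and cell from 3′ reads with Cell Ranger 3.0.2 on mm10, after bcl2fastq 2.19.1.403. The iWAT files held no cell above 22000 UMIs or 25% mitochondrial UMIs, so a filter had already been applied there. Here the same limits were applied to every library. Cells were clustered per depot (Leiden, leidenalg 0.10.2, resolution 1, 2000 variable genes, 25 components) with the 9 members and both further gene lists left out. Clusters were named by at least 3 markers. Details of naming mural sub-clusters were set after the clusters were seen, before the comparisons. UMIs were summed per class and library where it held at least 20 cells, and edgeR 4.0.16 (quasi-likelihood, TMM, all groups of a class in the fit, Benjamini-Hochberg adjustment over all genes tested) was the main test, with calls at an adjusted p of at most 0.05 and 1.1-fold. The members and lists were chosen with earlier results of these data known. All 9 members were described in every comparison, and up to 3 called genes in each direction per list were named. DESeq2 1.42.0, other normalization, filters, cell definitions, Scrublet doublet removal (scanpy 1.11.5), thinning to 700 UMIs and leaving out each library were the alternatives. Scrublet called at most 11.1% of the mural cells of a library, and doublets were kept in the main fit. Tested on simulated data, the mural fit in eWAT recovered 67% of genes changed 4-fold and 12% of those changed 2-fold in the ob/ob comparison, over 7030 genes. Mural comparisons with ob/ob-Veh in iWAT, which held 1 and 13 such cells, were not run. Whether both depots came from the same mice is not given in the sources used here. Intervals cover counting error only.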

Additional observations from a re-analysis of the deposited data

Results flagged for a closer look

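In eWAT, several members moved one way in both mural ob/ob-Veh libraries and the opposite way in both Pdgfra ones, and the difference between the cell classes was not tested. They are listed because their libraries did not overlap between groups. The share of all genes that separate in this way was not counted in eWAT, and such separation was common in iWAT Pdgfra cells. For ob/ob-Veh against WT-Veh the log2 differences in mural and Pdgfra cells were 3.08 and −2.80 for Acta2, 1.52 and −1.37 for Myl9, 1.19 and −0.92 for Tpm1, and 1.35 and −1.91 for Actn1. For ob/ob-Rosi against ob/ob-Veh they were −1.96 and 4.95 for Tagln, −3.19 and 3.62 for Acta2, −1.11 and 0.85 for Tpm1, −2.40 and 2.66 for Tpm2, and −1.005 and 1.92 for Actn1. The ob/ob-Veh libraries serve in both sets of values, the Pdgfra values belong to the contrast for which Tagln was chosen, and in mural cells only Acta2 and Myl9 of the first set and Acta2 and Tpm2 of the second passed edgeR's test.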

How the results depend on the processing

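With 2 libraries per group, counts of called genes and members depended on the setting. In eWAT mural cells 147 genes and 3 members were called for ob/ob-Veh. DESeq2 called 52 genes, the fit with no filter on low counts 5 members, cells set by marker counts 301 genes and 8 members, and thinned cells 14 genes, and leaving out a library gave 71 to 188 genes and 1 to 7 members. For the Rosi comparison (109 and 3) these were 34 and 1 by DESeq2, 532 and 6 by marker counts, and 6 and 0 when thinned, with 11 to 200 genes and 0 to 5 members without a library. For ob/ob-Rosi against WT-Veh in eWAT (27 and 0) they were 11 genes by DESeq2, 56 with no filter, 99 by marker counts and 1 when thinned, with 11 to 63 genes and 0 to 2 members without a library, and in iWAT (69 and 0) 180 with no filter, 162 by marker counts and 0 when thinned, with 50 to 235 genes and 0 to 1 members. Between depots (25 and 0) they were 58 and 2 with no filter, 8 genes when thinned, and 410 and 3 at clustering resolution 2, with 5 to 31 genes and 0 to 2 members without a library. In eWAT Pdgfra cells DESeq2 called 7 members for ob/ob-Veh (948 and 4), and no filter gave 1797 genes, with 287 to 1388 genes and 4 to 6 members without a library. For ob/ob-Rosi (1090 and 5) no filter gave 2018 genes and thinning 592, with 322 to 2322 genes and 4 to 6 members. In iWAT Pdgfra cells the ob/ob-Veh counts (50 and 0) became 630 and 2 by DESeq2, 1149 and 4 with no filter and 3 genes by marker counts, with 0 to 850 genes and 0 to 2 members, and the ob/ob-Rosi counts (81 and 1) became 1019 and 3, 1627 and 7, 0 and 0, and 391 genes when thinned, with 0 to 1666 genes and 0 to 7 members. The Pdgfra depot count (2392 and 7) was 1492 genes when thinned, and 1740 to 2569 genes and 7 to 9 members without a library. The causes were not tested. In mural cells of ob/ob-Rosi against WT-Veh, leaving out a library gave log2 differences of −2.28 to 2.01 for Tagln and −1.67 to 3.11 for Acta2 in eWAT, reversed without WT-Veh eWAT replicate 1, and of −0.99 to 8.16 for Tagln in iWAT, reversed without WT-Veh iWAT replicate 2, where the WT-Veh library left has no Tagln UMI, so that 8.16 is no bound and rests on a count of 0. Direction also reversed for Myh11 between depots in mural cells (−1.56) at clustering resolution 2, where eWAT was left with 1 library a group, WT-Veh replicate 2 (22 cells) and ob/ob-Rosi replicate 2 (41 cells), in a sub-cluster in which 71.7% of cells showed at most 1 endothelial marker. The 410 calls rest on the same libraries. At that resolution the eWAT mural class was that sub-cluster alone, 113 cells in place of 486. The 3 eWAT mural comparisons could therefore not be fitted. The replicate numbers name samples and are not known from the labels to pair them, and there are 2 numbers. To look for pairing, the deviation of each gene in replicate 1 from its group mean was correlated between groups, across genes. These correlations were 0.20 to 0.30 in eWAT Pdgfra cells, −0.04 to 0.57 in iWAT Pdgfra cells and 0.06 to 0.10 in eWAT mural cells. With the replicate block the eWAT mural counts were 270 genes and 6 members for ob/ob-Veh, 222 and 5 for ob/ob-Rosi and 88 genes for ob/ob-Rosi against WT-Veh. It gave 495 genes and 1 member in iWAT and 50 and 2 between depots. In Pdgfra cells the block gave 1676 and 7, and 1858 genes, in eWAT, and 196 genes, and 580 and 3, in iWAT.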
